A study of Mus musculus with 2 samples.

Results

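The nuclear receptors Nr4a1, Nr4a2 and Nr4a3 and the Krüppel-like factors Klf2, Klf4 and Klf6 were followed across the cells of arthritic mouse joints after β-glucan or PBS. These 6 genes were chosen by name, with earlier results of these data known, out of the 32524 genes in the count tables. All 6 were present. Wild-type C57BL/6 mice had received β-glucan, a fungal agonist of trained immunity, or PBS 7 days before arthritis was induced, and CD45+CD11b+ cells were sorted from their hind paws on day 17. Cells of several mice of a group were pooled into 1 droplet-based 3' library per group, cells carry no mark of the mouse they came from, and both groups were arthritic. The study's design and methods give K/BxN serum transfer as the arthritis model, whereas the treatment text of the samples describes a cocktail of arthritogenic antibodies followed by lipopolysaccharide, and the former is used here.

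The Nr4a genes encode orphan nuclear receptors that are transcribed as immediate-early genes, within a short time of signals such as calcium, cAMP or Toll-like receptor ligands, and they restrain inflammatory gene expression in macrophages. Nr4a1 is also required for the Ly6C-low monocytes that patrol vessels. Klf2 and Klf4 are zinc finger factors that respond to the ERK5-MEF2 pathway, hold back NF-κB dependent genes and, in the case of Klf4, take part in monocyte differentiation and alternative macrophage activation, whereas Klf6 is known to favour inflammatory gene expression in macrophages.

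The starts of the 6 genes were examined for matches to the sites of factors that act on immediate-early genes. RefSeq promoter windows of all 6 genes were found at 1 place each in GRCm39, and the 250 bases before the start were searched on both strands. The core of the cAMP response element (CRE), TGACG, was present in 5 of the 6 windows, in all but that of Klf6, and in 17.8% of the 32851 windows of the RefSeq table (build GRCm38.p6). A MEF2 site was present in the windows of Nr4a2 and Klf2, and in 2.92% of all windows. In Nr4a2 it overlapped a match to TATAAA. The full CRE, TGACGTCA, the NBRE site to which Nr4a receptors bind, AAAGGTCA, and the CArG box of serum response factor were in none of the 6 windows, and in 1.55%, 1.34% and 1.47% of all windows. The GC box, GGGCGG, was in all 6 windows and in 32.7% of all windows. The CACCC box was in 3 and 52.0%, the CCAAT box in 1 and 33.8%, and TATAAA in 1 and 12.4%. The 6 windows had 63.6% to 80% G and C, against a median of 52.4% over all windows. Shares among windows of like G and C content were not computed. For the 5 genes with a match, 30 bases around the match nearest to the RefSeq start are shown 5′ to 3′ on the strand of the gene, because they show the matches as a pair of cores, a single core or a MEF2 site. The window of Klf2 also holds a CRE core, further upstream, 241 bases before the start. Those of Nr4a1, Nr4a2 and Nr4a3 hold 4 CRE cores each, not all of them shown, and that of Klf4 holds 1. Capitals mark the CRE core, on either strand, or, for Klf2, the MEF2 site.
Nr4a1: gcccctctccatgCGTCAcggagcgcttaa
Nr4a2: cTGACGgggccgcTGACGcgcttggccgcg
Nr4a3: cctgtggcataaaTGACGtgccgagagagc
Klf2: tataccgcggCTAAATTTAGgctgagcccg
Klf4: gctgcctggctggCGTCAcggcctggcccc
In GRCm39 these stretches lie at chr15:101164674-101164703 on the plus strand (Nr4a1), chr2:57014110-57014139 on the minus strand (Nr4a2), chr4:48045145-48045174 on the plus strand (Nr4a3), chr8:73072778-73072807 on the plus strand (Klf2) and chr4:55532691-55532720 on the minus strand (Klf4). They begin 53, 124, 160, 128 and 245 bases before the RefSeq starts. GENCODE places some transcripts of these genes further upstream, so the stretches of Nr4a1, Nr4a2 and Klf2 lie in annotated exons, 22 bases of that of Nr4a3 do, and that of Klf4 lies outside the gene. A match is a run of letters and was not tested as a binding site.

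The β-glucan library held 81611849 unique molecular identifiers (UMIs) over 7196 barcodes and the PBS library 73874602 over 5760, of which 5696 and 4553 cells passed the filter given in the study's methods (500 genes or more, and mitochondrial UMIs not above 10%). The cells were clustered again with the 6 genes left out of the principal components, which gave 18 clusters. The libraries had 7 barcodes in common, 2 of them among the cells kept. Levels are given as CPM, the UMIs of a gene divided by all UMIs of the cells summed and scaled to 1000000, with exact Poisson intervals, and differences as log2 ratios of β-glucan over PBS with exact conditional binomial intervals, all at 95%. With 1 library per group a difference has no replicate check, no p-value is given, and these intervals cover counting error only. They treat UMIs as independent and do not cover an uneven spread of UMIs over cells.

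The main myeloid cell compartment, the macrophage-like and APC-like (antigen presenting) clusters and 2 clusters of macrophages led in part by monocyte markers, held 4618 β-glucan cells (81.1%) and 3678 PBS cells (80.8%). Clusters are called by their 2 leading genes. The defining macrophage markers were present in both libraries at a summed 10168 and 9636 CPM, while those of neutrophils summed to 40.2 CPM with β-glucan and 124 CPM with PBS. APC markers summed to 7300 CPM with β-glucan and 10908 CPM with PBS, and the Ccl17/Retnla cluster of APC-like cells held 285 β-glucan and 509 PBS cells. The part of these markers in the results was not tested.

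In the compartment, 5 of the 6 genes were at least 1.2-fold lower with β-glucan, and Klf6 was level. The paper had already reported lower Nr4a1 and Klf2 from the same libraries, in a main myeloid compartment made of its own clusters. By cluster, it reported Nr4a1 and Klf2 as lower in a single cluster each, and not the same one. Since the genes were chosen with earlier results known, the count of 5 is not independent of that choice. Of 9811 genes whose mean level reached 5 CPM, 443 were lower by this fold (4.52%) and 665 were higher (6.78%). Short genes were lower more often, at 8.33% of the genes that span under 10 kb, as do Klf2, Klf4 and Klf6. The share was 5.39% of those that span under 50 kb, as do all 6, a limit chosen after the spans were seen. The median log2 ratio over all 9811 genes was 0.03. It was -0.06 over those that span under 10 kb and 0.14 over those that span 100 kb or more. With TMM scaling, which moved all log2 ratios by -0.03, 533 genes were lower and 509 higher by 1.2-fold, and the calls of the 6 genes did not change.

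Nr4a1, the best known immediate-early receptor of the family, had 56.1 CPM with β-glucan and 79.1 CPM with PBS, a log2 ratio of -0.50 (-0.56 to -0.43). Nr4a2, which in macrophages is induced by inflammatory signals and prostaglandins, had 32.0 CPM and 55.3 CPM. Its log2 ratio of -0.79 (-0.87 to -0.71) was the lowest of the 6 and stood at place 50 from the lowest among the 9811 genes. Nr4a3, the least abundant of the receptors in these cells at 651 and 849 UMIs in all, had 9.95 CPM and 14.0 CPM, and its log2 ratio was -0.49 (-0.64 to -0.34). This ratio moved with the choice of cells. It was -0.02 in 3193 cells of each library, matched within clusters for how many of their UMIs came from long genes. This matching also made the numbers of cells per cluster equal between the libraries, and the parts of the 2 were not separated. The ratio was -0.11 without the filter on cells, where all barcodes were placed anew in the nearest cluster. In cells thinned to 8000 UMIs each it was -0.85.

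Klf2, which holds monocytes and T cells in a quiescent state, had 286 CPM with β-glucan and 353 CPM with PBS, a log2 ratio of -0.30 (-0.33 to -0.28). Eps15l1, which overlaps Klf2 on the other strand, had a log2 ratio of 0.07 (0.00 to 0.13). Klf4, which takes part in monocyte differentiation, had 387 CPM and 536 CPM, a log2 ratio of -0.47 (-0.49 to -0.45). Klf6, by contrast, had 622 CPM and 626 CPM, a log2 ratio of -0.01 (-0.03 to 0.01), and stood at place 3883 among the 9811 genes. The other genes stood at places 133 (Nr4a1), 134 (Nr4a3), 155 (Klf4) and 348 (Klf2).

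**Figure D1:**
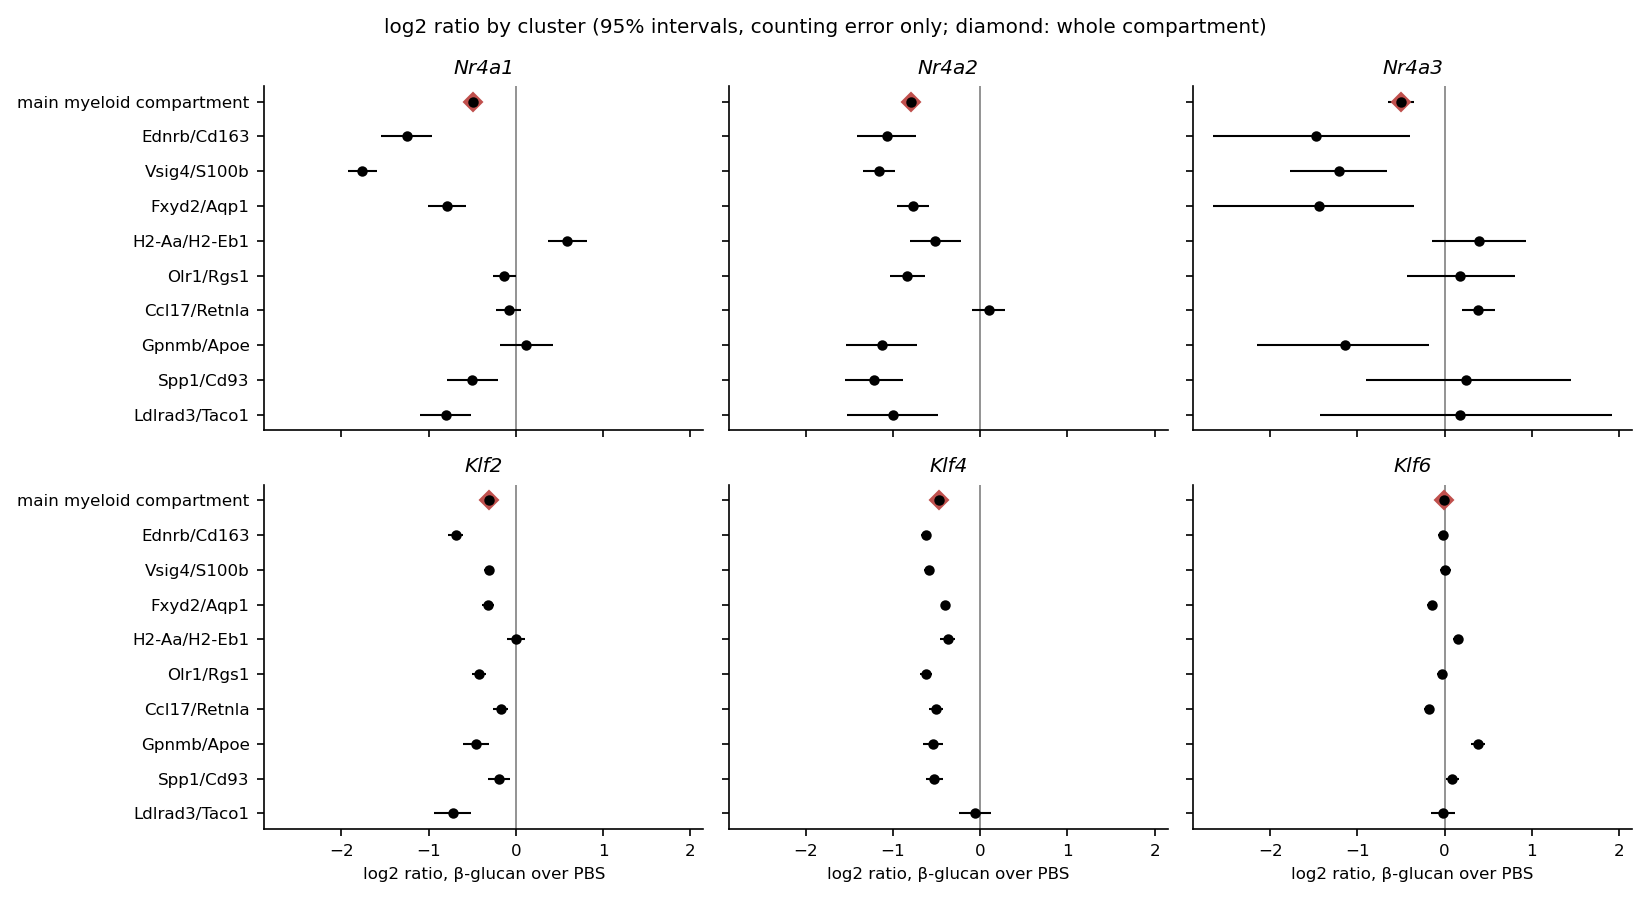
Log2 ratio of β-glucan over PBS (x axis) for each of the 6 genes in the whole compartment (diamond) and in its 9 clusters that held 100 or more cells of each library (points, named by 2 leading genes), with 95% intervals for counting error. Klf4 and Klf2 lie at or left of 0 in all 9 clusters, whereas Nr4a1 runs from -1.76 in the Vsig4/S100b cluster to 0.59 in the H2-Aa/H2-Eb1 cluster.

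The lower levels were spread differently over the clusters for each gene. Klf4 was lower with β-glucan in all 9 clusters that held 100 or more cells of each library, in 8 of them with an interval below 0. Its log2 ratios ran from -0.62 in the Ednrb/Cd163 cluster, at 431 and 664 CPM, to -0.06 in the Ldlrad3/Taco1 cluster, the cluster of lowest depth. Klf2 was also lower in 9 of 9 clusters, in 8 with an interval below 0, from -0.73 in the Ldlrad3/Taco1 cluster to -0.00 in the H2-Aa/H2-Eb1 cluster. Nr4a2 was lower in 8 of 9 clusters, each with an interval below 0. Its largest decrease was in the Spp1/Cd93 cluster, at 22.8 CPM with β-glucan and 52.7 CPM with PBS (log2 ratio -1.21, -1.55 to -0.89), and in the Ccl17/Retnla cluster it had 54.3 CPM and 50.8 CPM (0.10, -0.10 to 0.29). Intervals narrow as the UMIs of a gene increase. The share of all genes with such counts of clusters, here and below, was not computed.

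Nr4a1 showed the widest range of the 6 genes over the clusters. It was lower in 7 of 9 clusters, in 6 of them with an interval below 0. In the Vsig4/S100b cluster, whose leading genes mark macrophages of the synovial lining, Nr4a1 had 38.6 CPM with β-glucan and 131 CPM with PBS, which is 3.38-fold lower (log2 ratio -1.76, -1.92 to -1.60). In the Ednrb/Cd163 cluster it had 13.9 CPM and 33.1 CPM (-1.25, -1.55 to -0.96). In the H2-Aa/H2-Eb1 cluster, which is APC-like, it went the other way, at 57.6 CPM and 38.3 CPM (0.59, 0.37 to 0.81).

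The place of each gene among the genes of the same clusters varied with the cluster. Among genes whose mean reached 20 CPM in a cluster, a minimum chosen after the data were seen, Nr4a1 had place 2 from the lowest ratio of 6737 genes in the Vsig4/S100b cluster and place 3 of 6759 in the Ednrb/Cd163 cluster. In these clusters 3.53% and 5.03% of genes were at least 1.2-fold lower, and over the 9 clusters 3.53% to 17.8% were. Nr4a2 had place 4 of 6679 in the Spp1/Cd93 cluster, place 6 in the Vsig4/S100b cluster, place 8 of 6606 in the Gpnmb/Apoe cluster and place 9 of 6471 in the Olr1/Rgs1 cluster. Klf4 had place 26 in the Olr1/Rgs1 cluster and place 28 in both the Vsig4/S100b and the Ednrb/Cd163 cluster. Klf2 ran from place 22 in the Ednrb/Cd163 cluster to 785 of 6679 in the Spp1/Cd93 cluster, 1106 of 6504 in the Ccl17/Retnla cluster and 3093 of 6653 in the H2-Aa/H2-Eb1 cluster. Nr4a1 was at place 1201 of 6471 in the Olr1/Rgs1 cluster, 1957 of 6504 in the Ccl17/Retnla cluster, 4629 of 6606 in the Gpnmb/Apoe cluster and 6612 of 6653 in the H2-Aa/H2-Eb1 cluster. Klf4 was at place 2659 of 6905 in the Ldlrad3/Taco1 cluster, where 17.8% of genes were lower by 1.2-fold. In all, Klf4 was among the lowest 5% of genes in 8 of 9 clusters, Nr4a2 in 7 of the 8 in which it reached the minimum, Klf2 in 6 of 9, Nr4a1 in 5 of 9 and Klf6 in 0 of 9.

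Nr4a3 and Klf6 moved in both directions over the clusters. Nr4a3 was lower in 4 clusters and higher in 5. Its lowest log2 ratio rested on 11 and 24 UMIs in the Ednrb/Cd163 cluster (-1.48, -2.66 to -0.39), and it was higher with an interval above 0 in the Ccl17/Retnla cluster, at 61.2 CPM and 46.9 CPM (0.39, 0.20 to 0.57), where most of its UMIs in the compartment were found. The Ccl17/Retnla cluster held 383 of the 651 β-glucan and 583 of the 849 PBS UMIs of Nr4a3 in the compartment, from 285 and 509 cells. The ratio of Nr4a3 in the compartment thus holds numbers of cells per cluster as well as levels within clusters. Leaving out the Ccl17/Retnla cluster moved it to -0.29. The part of the cell numbers was not tested on its own. Klf6 was lower in 5 clusters and higher in 4, with intervals below 0 in 2 and above 0 in 3. It ran from -0.18 (-0.24 to -0.12) in the Ccl17/Retnla cluster to 0.38 (0.30 to 0.46) in the Gpnmb/Apoe cluster, at 570 CPM with β-glucan and 437 CPM with PBS.

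**Figure D2:**
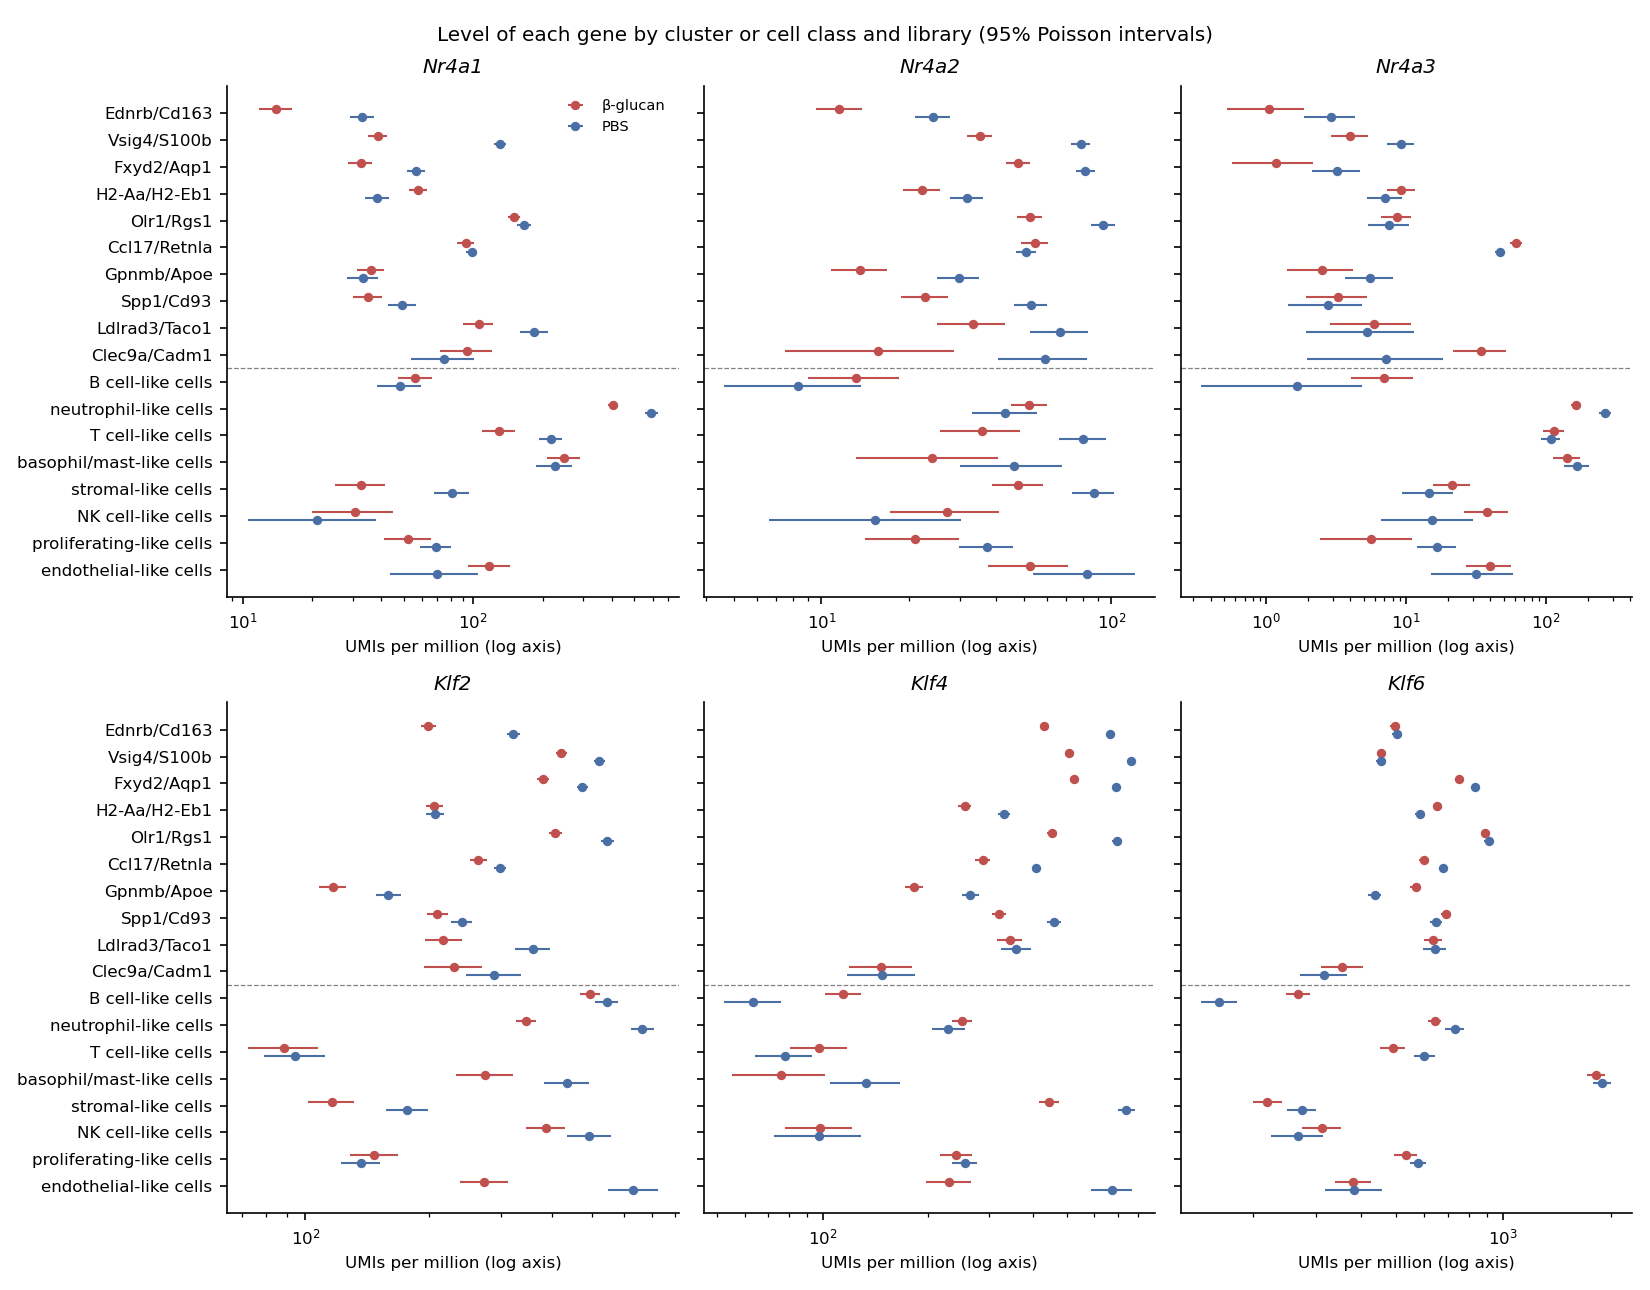
Level of each gene in CPM (x axis, log scale) in each compartment cluster (above the dashed line) and in each other cell class (below it), for β-glucan and PBS, with 95% Poisson intervals. Nr4a1 and Nr4a3 are highest in neutrophil-like cells, Klf6 in basophil/mast-like cells, and Klf4 is high in macrophage clusters and stromal-like cells and low in lymphocytes.

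Levels over the cells of the sort set the 6 genes apart from each other. Summed over both libraries, Nr4a1 was highest in neutrophil-like cells, at 458 CPM (439 to 477), followed by basophil/mast-like cells at 236 CPM and T cell-like cells at 178 CPM, in that order in each library among the classes outside the compartment. Within the compartment it was highest in the Olr1/Rgs1 cluster (157 CPM) and the Ldlrad3/Taco1 cluster (137 CPM), whose intervals overlapped and whose order differed between the libraries, and lowest in the Ednrb/Cd163 cluster (22.3 CPM). Nr4a3 had the same first 3 classes outside the compartment, at 194, 154 and 111 CPM, and within the compartment it stood out in the Ccl17/Retnla cluster, at 51.7 CPM (48.5 to 55.0), ahead of the Clec9a/Cadm1 cluster of 56 cells at 21.7 CPM. The other 8 compartment clusters had 1.86 to 8.20 CPM of Nr4a3. Nr4a2 had 17.1 to 68.3 CPM over the compartment clusters, with the highest levels in the Olr1/Rgs1 cluster (68.3 CPM) and the Fxyd2/Aqp1 cluster (64.5 CPM), whose intervals overlapped, and 65.1 CPM in stromal-like cells. The order of its compartment clusters differed between the libraries, since the Ccl17/Retnla cluster was first with β-glucan and seventh with PBS.

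Among the Krüppel-like factors, Klf2 was high in the Vsig4/S100b cluster (466 CPM) and the Olr1/Rgs1 cluster (461 CPM), which did not differ beyond their intervals, and in B cell-like cells (516 CPM), and low in T cell-like cells (91.7 CPM). Klf4 was highest in the Vsig4/S100b cluster (622 CPM) and the Fxyd2/Aqp1 cluster (609 CPM), again with overlapping intervals, and reached 576 CPM in stromal-like cells. B cell-like, T cell-like and NK cell-like cells had 86.8 to 98.0 CPM of Klf4, with overlapping intervals. The B cell-like value mixes 2 clusters that are parted below. The larger, led by Igkc and Cd79a, had 39.5 CPM with β-glucan and 29.2 CPM with PBS, and the other 281 and 232 CPM. Klf6 was highest in basophil/mast-like cells, at 1853 CPM, and within the compartment in the Olr1/Rgs1 cluster, at 900 CPM (883 to 917). In both libraries the Gpnmb/Apoe cluster had the lowest Klf2 of the compartment, 136 CPM, and after the Clec9a/Cadm1 cluster the lowest Klf4, 220 CPM.

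Outside the compartment, neutrophil-like cells require their depth beside the ratio. Nr4a1 in these cells had 403 CPM with β-glucan and 593 CPM with PBS, a log2 ratio of -0.55 (-0.68 to -0.43), but the β-glucan cells had a median of 9564.5 UMIs and 2.27% mitochondrial UMIs and the PBS cells 4544 UMIs and 0.297%. At a resolution of 1 they parted into a cluster led by Retnlg and S100a9, with 114 β-glucan and 128 PBS cells, and one led by Il1r2 and Il1b, with 136 and 43 cells, a median of 18239 UMIs and 33.5% of cells among those of highest doublet score. Nr4a1 had 1005 CPM with β-glucan and 943 CPM with PBS in the first, and 290 and 299 CPM in the second. Nr4a3 had 395 and 440 CPM, and 121 CPM in each library. The levels of all neutrophil-like cells thus mix those of the 2 clusters. Nr4a1 then had log2 ratios of 0.09 (-0.07 to 0.26) and -0.04 (-0.25 to 0.17), so the lower level in neutrophil-like cells did not hold within the clusters. Neither did that of Nr4a3 (-0.70 before, -0.15 and -0.00 after). Klf2 was lower in both, at -0.45 and -0.70. In the Retnlg/S100a9 cluster Klf4 had -1.48 (-2.30 to -0.71), on 19 and 61 UMIs, and Nr4a2 1.31 (0.64 to 2.01), on 60 and 28 UMIs, against 0.13 and 0.27 in all neutrophil-like cells.

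The B cell-like cells also changed when they were parted. As a whole they had 114 CPM of Klf4 with β-glucan and 63.4 CPM with PBS (0.85, 0.53 to 1.18), and 268 and 161 CPM of Klf6 (0.73, 0.53 to 0.94). Macrophage markers summed in these cells to 2861 and 1583 CPM, a log2 ratio of 0.85 as well. At a resolution of 1, a division added after the data were seen, a cluster led by Igkc and Cd79a held 247 β-glucan and 211 PBS cells, with 39.5 and 29.2 CPM of Klf4 (0.44, -0.14 to 1.02). A cluster led by Bank1 and Pax5 held 77 and 34 cells, of which 41.4% were among those of highest doublet score, with 6829 and 5490 CPM of macrophage markers and 281 and 232 CPM of Klf4 (0.28, -0.11 to 0.68). The difference in Klf4 was thus not beyond counting error within either cluster. Klf6 had 0.55 (0.27 to 0.84) in the first and 0.29 (-0.01 to 0.59) in the second. In stromal-like cells (106 and 73 cells), Nr4a1 had 32.6 CPM and 80.8 CPM (-1.31, -1.75 to -0.87) and Klf4 444 CPM and 741 CPM (-0.74, -0.86 to -0.61). T cell-like cells (116 and 124) had 129 and 217 CPM of Nr4a1, 35.7 and 79.9 of Nr4a2 and 491 and 602 of Klf6. Their intervals of Nr4a3, Klf2 and Klf4 overlapped between the libraries. Endothelial-like cells (55 and 29) had 273 and 632 CPM of Klf2 and 230 and 673 of Klf4, but 117 and 69.5 of Nr4a1. Lower levels were thus not confined to the compartment.

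**Figure D3:**
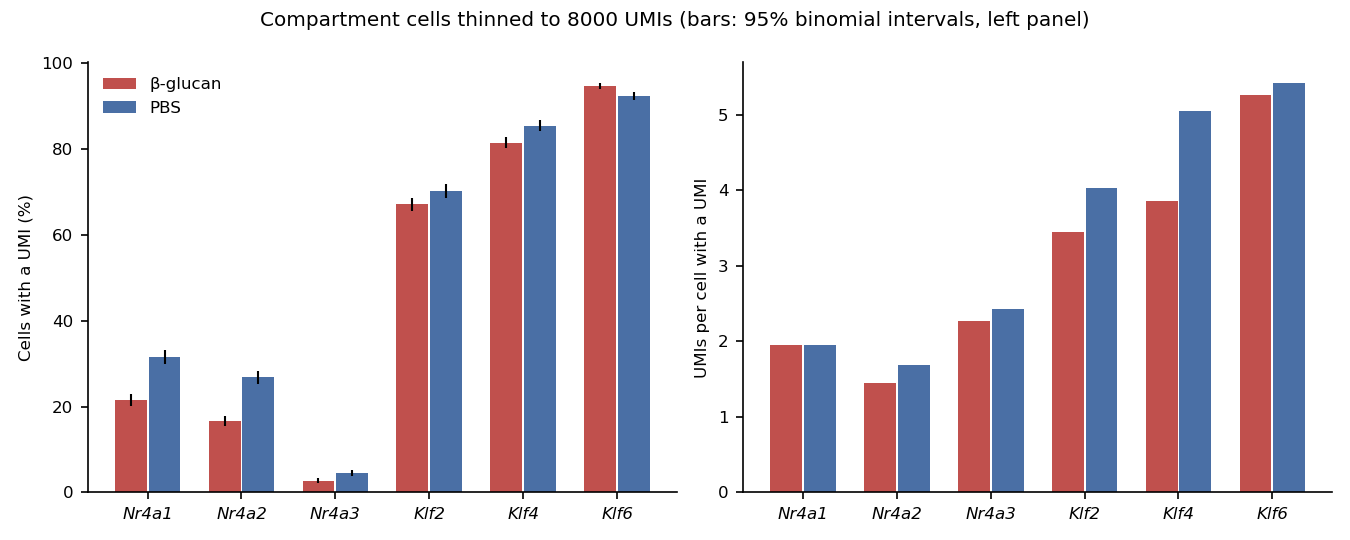
Left, the percentage of compartment cells with at least 1 UMI of each gene, with 95% binomial intervals, and right, the mean number of UMIs in the cells that have one, for 3781 β-glucan and 3150 PBS cells thinned to 8000 UMIs. Nr4a1 was found in 21.5% of β-glucan and 31.5% of PBS cells, and Klf4 in 81.5% and 85.4%, near the upper end of the scale.

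To give detection per cell at equal depth, cells of the compartment were thinned to 8000 UMIs each, which left out 837 β-glucan and 528 PBS cells of lower depth. Nr4a1 was detected in 21.5% of β-glucan and 31.5% of PBS cells, at 1.96 and 1.95 UMIs per cell with a UMI. Nr4a2 was detected in 16.7% and 26.8% of cells, at 1.45 and 1.68 UMIs. At such low levels most cells with a UMI have few, so a difference in level appears mainly in the share of cells, while for Klf4 the share is near its upper end and a difference appears mainly in the amount. These values therefore do not separate fewer cells from fewer transcripts per cell. Klf4 was detected in 81.5% and 85.4% of cells, at 3.85 and 5.04 UMIs, and cells with at least 5 UMIs of Klf4 made up 24.4% and 37.3%. Klf2 was in 67.1% and 70.1% of cells, at 3.44 and 4.03 UMIs. Klf6 was in 94.7% and 92.4% of cells, at 5.25 and 5.42 UMIs. Nr4a3 was in 2.70% and 4.54% of cells, and in 3.75% and 6.72% before thinning.

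In the Vsig4/S100b cluster, 22.8% of β-glucan and 53.7% of PBS cells had a Nr4a1 UMI after thinning to 8000, at 1.37 and 1.98 UMIs per cell with a UMI, so share and amount were both lower with β-glucan. In B cell-like cells the share with a Nr4a1 UMI, thinned to 3000 UMIs, was 10.2% with β-glucan and 12.3% with PBS (medians of 5542 and 5958 UMIs before thinning). The Vsig4/S100b cluster had 8.98% and 26.3% on that scale, below and above the values of the B cell-like cells. Shares below those of B cell-like cells were also found elsewhere, at 4.42% in β-glucan cells of the Ednrb/Cd163 cluster and 3.64% in PBS cells of the NK cell-like class, so B cell-like cells were not the lowest. Before thinning, 35.3% and 70.9% of cells of the Vsig4/S100b cluster had a Nr4a1 UMI. In the H2-Aa/H2-Eb1 cluster, thinned to 8000 UMIs, 17.5% of β-glucan and 15.7% of PBS cells had one. These cells had 1.97 and 1.45 Nr4a1 UMIs each, so the higher level there lay mainly in the amount.

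Over the compartment as a whole, cells with a Nr4a1 UMI had higher levels of each of the other genes and of the immediate-early list. In the thinned compartment, Nr4a3 had 20.7 CPM in β-glucan cells with a Nr4a1 UMI and 4.04 CPM in those without, and 27.5 CPM and 7.47 CPM in PBS cells. Nr4a2 had 55.3 and 23.4 CPM with β-glucan and 88.3 and 41.7 CPM with PBS. Klf2 had 394 and 260 CPM with β-glucan, and Klf4 had 443 and 378 CPM, a smaller contrast than that of Klf4 in PBS cells (686 and 470 CPM). The 24 genes of the immediate-early list, which holds none of the 6, summed to 4946 and 1940 CPM with β-glucan and to 4082 and 2360 CPM with PBS. Cells of several clusters enter these values. Within single clusters and libraries, Nr4a2 was higher in cells with a Nr4a1 UMI in 16 of 18 cases and lower in 2, the β-glucan cells of the Ednrb/Cd163 cluster (log2 ratio of cells with over cells without -0.19) and the Spp1/Cd93 cluster (-0.30). Nr4a3 was higher in 14 of 17 and lower in 3, both libraries of the Fxyd2/Aqp1 cluster (-0.22 in β-glucan cells, -1.32 in PBS cells) and 1 library, PBS, of the Spp1/Cd93 cluster (-0.37). Klf2 and Klf4 were each higher in 16 of 18 cases, Klf6 in 14 of 18 and the immediate-early list in 18 of 18. The pattern was thus not particular to the receptors, and its share over all genes was not computed.

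Immediate-early genes as a list were lower with β-glucan, which stands beside the values of the receptors. Of 21 measured, 10 were at least 1.2-fold lower and 1 higher, with a median log2 ratio of -0.21 against 0.03 over all genes. They included Nfkbia, the inhibitor of NF-κB, at 136 and 209 CPM (-0.63), Dusp1, a phosphatase of MAP kinases, at 246 and 344 CPM (-0.48), and Csrnp1, at 8.63 and 13.5 CPM (-0.65). The 3 with a ratio above 0 were Nfkbiz, at 174 and 142 CPM (0.29), Jun, at 183 and 157 CPM (0.22), and Fos, at 459 and 454 CPM (0.02). The list summed to 2615 CPM with β-glucan and 2974 CPM with PBS in the compartment, to 1666 and 2279 CPM in the Vsig4/S100b cluster, and to 3322 and 2771 CPM in the H2-Aa/H2-Eb1 cluster. In these 2 clusters, the extremes of Nr4a1, it lay in the same direction as Nr4a1, by a smaller log2 ratio. The list and Nr4a1 had the same sign in all 9 clusters with 100 or more cells of each library. They had -0.58 and -0.79 in the Fxyd2/Aqp1 cluster, -0.19 and -0.08 in the Ccl17/Retnla cluster, and 0.11 and 0.12 in the Gpnmb/Apoe cluster. Joints were digested at body temperature before the sort, and the part of the digestion was not tested. Of 12 measured heat shock genes 0 were past 1.2-fold (median -0.09, with Dnajb1 at -0.22, Hspe1 at -0.21 and Hspa8 at -0.20), against 4.52% of all genes lower and 6.78% higher. As a list they summed to 2296 and 2563 CPM in the compartment, a log2 ratio of -0.16, beside -0.19 for the immediate-early list. The part of the immediate-early genes in the values of the 6 genes was not tested.

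When cells were parted at the median share of UMIs from the immediate-early list, an alternative chosen after the data were seen, the 6 genes fell into different patterns. In cells at or below it, Nr4a1 had a log2 ratio of -1.13, Nr4a3 -1.68, Nr4a2 -0.72 and Klf4 -0.35, and Klf2 turned to 0.07. In cells above it, Nr4a1 had -0.11 and Nr4a3 -0.06, while Nr4a2 had -0.67, Klf4 -0.49 and Klf2 -0.41. Nr4a2 and Klf4 were thus lower on both sides, at least 1.2-fold. The sides hold different clusters and differ between the libraries. Of the β-glucan cells 55.1% were at or below the median and of the PBS cells 43.6%, and in the Ednrb/Cd163 cluster 78.5% and 64.8% were, against 28.1% and 22.4% in the Olr1/Rgs1 cluster. Over the 9 compartment clusters the list and Nr4a1 had r = 0.76, so the values of Nr4a1 on each side are not separate from its ratios by cluster.

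**Figure D4:**
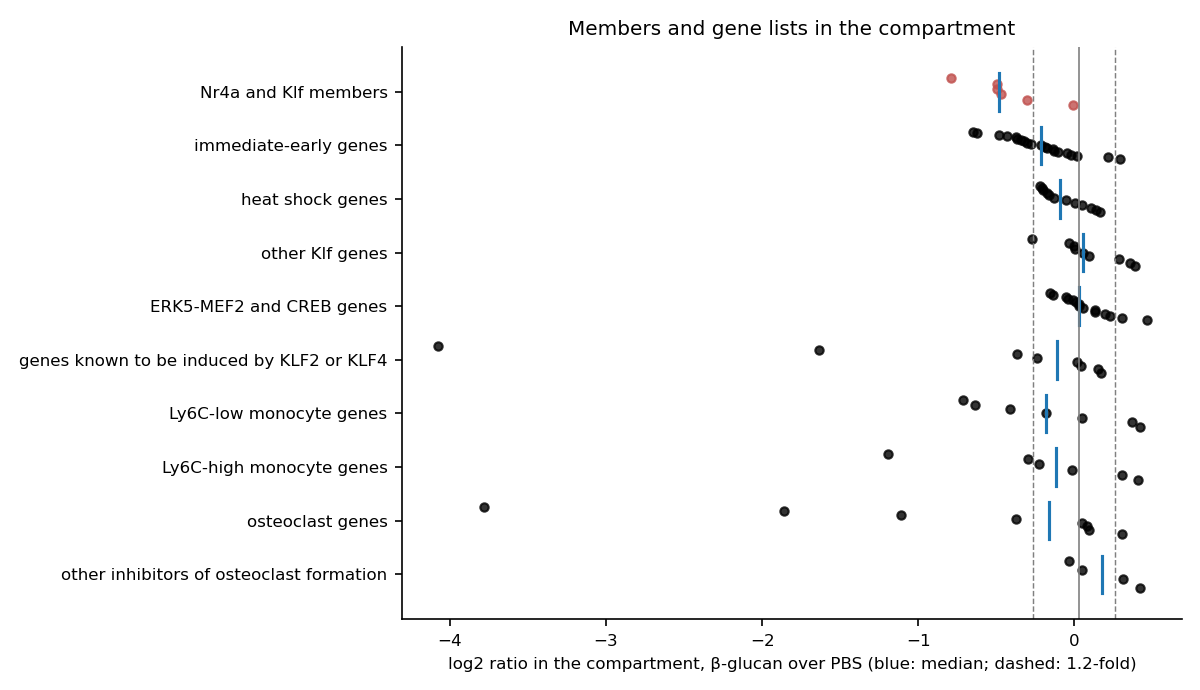
Log2 ratio of β-glucan over PBS in the compartment (x axis) for the 6 genes (red) and for the measured members of 9 gene lists (black), with the median of each (blue), the median of all genes (grey line) and 1.2-fold (dashed). The 6 genes have 5 members left of the lower dashed line, the immediate-early list 10 of 21, and Arg1 and Mmp9 lie furthest left.

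Genes known to act upstream of Klf2, Klf4 and the Nr4a receptors were set beside them. Of 15 measured genes of the ERK5-MEF2 pathway and of CREB, 0 were at least 1.2-fold lower and 2 higher, with a median of 0.03. The 2 were Mef2c at 509 and 369 CPM (0.46) and Mef2a at 1238 and 1002 CPM (0.30). Over all 9811 genes 4.52% were lower and 6.78% higher, the shares to set beside the counts of this and the other lists. Ratios varied with the span of genes, and shares for genes of like span were not computed for the lists. The activity of these proteins was not measured. Map2k5, the kinase that activates ERK5, had a log2 ratio of 0.23. Of 9 other measured Klf genes, 1 was lower and 3 were higher, Klf8 (0.39), Klf11 (0.36) and Klf12 (0.29), with a median of 0.05. Lower levels were found for 2 of the 3 Klf members and 1 of the other 9. The 3 were picked from the family with earlier results known. They span under 10 kb, as do genes of which 8.33% were lower, so the 2 counts are not a like comparison.

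Genes known to be induced by KLF2 or KLF4 were divided. Of 8 measured, 3 were at least 1.2-fold lower and 0 higher, with a median of -0.11. These were Arg1, the arginase of alternatively activated macrophages, at 8.45 CPM with β-glucan and 143 CPM with PBS (-4.08), Retnla, at 322 and 1002 CPM (-1.64), and the integrin gene Itgb7, at 36.8 and 47.5 CPM (-0.37). Retnla is a leading gene of the Ccl17/Retnla cluster, which held more PBS than β-glucan cells. When immediate-early and heat shock genes were left out of the clustering, Arg1 led a cluster of 16 β-glucan and 77 PBS cells, which held 74.5% of the Arg1 UMIs of the PBS cells. Without these cells, a choice made after the data were seen, Arg1 had 8.47 and 37.6 CPM (-2.15) and Retnla 319 and 602 CPM (-0.91). Of 7 measured genes of Ly6C-low monocytes, 3 were lower and 2 higher, with Cebpb, a factor on which these monocytes depend, at 224 and 367 CPM (-0.71), Adgre4 at -0.64 and Pou2f2 at 0.42. Of 6 of Ly6C-high monocytes, 2 were lower and 2 higher, with Chil3 at -1.19, F13a1 at 0.41 and Vcan at 0.30.

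Because the study concerned osteoclast formation, osteoclast genes and other genes that restrain it were set beside the 6. Of 8 measured osteoclast genes, 4 were lower and 1 was higher, with a median of -0.16. The largest changes were in Mmp9, at 0.779 and 10.7 CPM (-3.78), Acp5, which encodes TRAP, at 10.3 and 37.4 CPM (-1.86), and Dcstamp, needed for cell fusion, at 8.91 and 19.2 CPM (-1.11). The ratio was above 0 for 4 of the 8. These were Prdm1 (0.31), Nfatc1, at 84.8 and 79.6 CPM (0.09), Tnfrsf11a, at 300 and 283 CPM (0.09), and Atp6v0d2 (0.05). At a resolution of 1, Dcstamp was among the leading genes of an APC-like cluster of 93 β-glucan and 142 PBS cells. Neutrophil markers summed to 40.2 and 124 CPM in the compartment. The part of such differences in cells in these ratios was not tested. Of 4 other inhibitors of osteoclast formation, 0 were lower and 2 higher, Bcl6 at 71.7 and 53.5 CPM (0.42) and Irf8 at 100.05 and 80.7 CPM (0.31), and Cblb had 0.05.

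Patterns over cell types were compared for all genes that reached 50 CPM in a cluster, over the 16 clusters with at least 100 cells in all and 7030 genes, as a description in which the clusters share libraries and differ in depth. The genes most like Nr4a1 were Junb (Pearson r = 0.94), Csrnp1 (0.91) and Nfkbia (0.89), 3 immediate-early genes. Nr4a3 was most like Dusp5 (0.88), a phosphatase of ERK, Kdm6b (0.88), a histone demethylase, and Arl5b (0.86). Nr4a2 was most like Bhlhe40 (0.83), Rgcc (0.82) and Agpat4 (0.79). Klf4 was most like Dstn (0.95), Cd109 (0.93) and Rnf10 (0.93), and Klf6 most like Abr (0.87), Stx3 (0.85) and Furin (0.84). Between members, Klf2 and Klf4 had r = 0.90 over the 9 compartment clusters with at least 100 cells and r = 0.10 over all 16, among which B cell-like cells were high in Klf2 and low in Klf4. Nr4a1 and Nr4a3 had r = 0.73 over the 16 clusters, and Nr4a3 and Klf4 r = -0.52.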

How the data were processed

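The authors deposited counts of UMIs per gene and barcode for 2 libraries of synovial CD45+CD11b+ cells, made with Cell Ranger 7.0.0 on GRCm39 with Ensembl 104 genes per their methods, not normalized and not yet filtered by the limits on cells below. The submitters' processing notes name the builds GRCm39 and mm10. Whether reads in introns were counted is not given in the sources used here. The members and gene lists were chosen with earlier results of these data known. The rule for the genes named was the 6 members, the 3 genes most like each, the 3 measured genes of largest absolute log2 ratio in each list, and the leading genes of clusters. Nfkbiz, Jun and Fos, the immediate-early genes with a ratio above 0, and the osteoclast genes with a ratio above 0 are named besides. The genes most like Klf2 are not reported here.

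Cells passed with 500 or more genes and mitochondrial UMIs not above 10%. SCTransform (sctransform 0.4.2) on 3000 variable genes and Seurat 5.3.0 under R 4.3.3 made the clusters, with 30 principal components, 20 neighbours and a resolution of 0.7, on libraries merged without integration and without the members. Clusters were named from fixed markers by a rule that was completed after their leading genes were seen. That change named 1 cluster and left the compartment as it was. The Ednrb/Cd163 and Vsig4/S100b clusters kept no name, because monocyte markers were among their leading genes. Scrublet called 0 β-glucan and 2 PBS cells, so the caller had not worked and no doublet was removed. Scrublet was run in scanpy 1.11.5. Sums, ratios and intervals used scipy 1.17.1, pandas 2.3.3 and numpy 2.4.6 under Python 3.11.15, and TMM factors edgeR 4.0.16. The ratio and its interval were tested on sums simulated from the Poisson model that the interval assumes. This checked the calculation, and not whether the model holds for UMIs spread unevenly over cells. Spans were taken from GENCODE vM39, later than Ensembl 104, and promoters from RefSeq.

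Each library was 1 sample, so no test across samples was made. Depth is given with the results, and its precision by the intervals. Alternatives were other filters on cells, scalings, weights, cluster settings and cells (thinned, matched on long genes, without high doublet scores, or all of the sort). Leaving out single clusters, parting cells by immediate-early level, parting neutrophil-like and B cell-like cells, leaving out the cells of an Arg1-led cluster, the limit of 50 kb and the minimum of 20 CPM for places within a cluster were added after seeing the data.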

Additional observations from a re-analysis of the deposited data

Results flagged for a closer look

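For 3 genes the log2 ratio of β-glucan over PBS had an interval below 0 in one compartment cluster and above 0 in another. The clusters are those of the lowest and highest such value, chosen from 9, and the difference between them was not tested. Nr4a1 had -1.76 in the Vsig4/S100b cluster and 0.59 in the H2-Aa/H2-Eb1 cluster. Nr4a3 had -1.48 in the Ednrb/Cd163 cluster, on 11 and 24 UMIs, and 0.39 in the Ccl17/Retnla cluster. Klf6 had -0.18 in the Ccl17/Retnla cluster and 0.38 in the Gpnmb/Apoe cluster. The shares of cells with a UMI had overlapping intervals between the libraries for Nr4a1 in the H2-Aa/H2-Eb1 cluster and Nr4a3 in the Ccl17/Retnla cluster.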

How the results depend on the processing

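Over 19 alternatives the log2 ratios of Nr4a1, Nr4a2, Nr4a3 and Klf4 kept their sign, that of Klf2 did in 18, and that of Klf6, which was near 0, in 15. Nr4a2 and Klf4 were at least 1.2-fold lower under all 19, Nr4a1 and Klf2 under 18 and Nr4a3 under 15. In cells at or below the median immediate-early share, Klf2 turned to 0.066, and the values were -1.13 (Nr4a1), -1.68 (Nr4a3), -0.35 (Klf4) and 0.15 (Klf6). In cells above it they were -0.11 (Nr4a1), -0.67 (Nr4a2), -0.057 (Nr4a3), -0.41 (Klf2) and 0.063 (Klf6). Without a filter on cells, Nr4a1 had -0.39 and Nr4a3 -0.11. For this, all barcodes were placed anew in the nearest cluster, so the compartment was redrawn as well. The nearest cluster was the original one for 79.4% of the cells kept. Over all cells of the sort, Nr4a1 had -0.31 and Nr4a3 -0.13. Without the Olr1/Rgs1 cluster, the highest in immediate-early genes, Nr4a1 had -0.72 and Klf6 -0.036. Without the Ccl17/Retnla cluster the values were -0.93 (Nr4a2), -0.29 (Nr4a3), -0.35 (Klf2), -0.52 (Klf4) and 0.029 (Klf6). With equal weight per cell they were -0.87 (Nr4a2), -0.70 (Nr4a3), -0.36 (Klf2), -0.49 (Klf4) and -0.040 (Klf6), and with equal weight per cluster -0.37 (Klf2) and 0.027 (Klf6). In cells thinned to 8000 UMIs, Nr4a2 had -0.90 and Nr4a3 -0.85. When cells were matched on UMIs of long genes, with equal numbers per cluster, Nr4a3 had -0.025, Klf4 -0.54 and Klf6 -0.077. TMM scaling gave -0.33 (Klf2), -0.50 (Klf4) and -0.038 (Klf6), and median of ratios size factors gave -0.50 (Klf4) and -0.037 (Klf6). Other values stayed within the interval of counting error. The causes were not tested.

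The number of genes at least 1.2-fold lower was 133 of 3878 with a minimum of 50 CPM and 3682 of 20070 with no minimum beyond 1 UMI in each library, and of genes higher 252 and 3810. After thinning to 3000 UMIs, the share of cells with a UMI, β-glucan minus PBS, was -5.29 (Nr4a1), -6.16 (Nr4a2), -0.98 (Nr4a3), -8.68 (Klf4) and 1.90 (Klf6) percentage points, against -13.9, -13.4, -2.97, -4.86 and -0.14 before. No paired analysis was possible because each group had 1 library. Intervals cover counting error and not differences between mice or library preparations, which cannot be told apart from the treatment.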
